A study of Mus musculus with 2 samples.

Results

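The genes described are 9 cytokines and receptors of the interleukin-1 (IL-1) family, namely the cytokine genes Il1a, Il1b, Il18 and Il33, the inhibitor genes Il1rn and Il18bp, and the receptor genes Il1r1, Il1r2 and Il1rap, out of 23786 genes that could be named on the array. They were taken from a list of family names and found through the transcript accession printed for each probe. All 9 had at least 1 probe, and 16 probes measured them.

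The IL-1 family comprises secreted cytokines, their natural antagonists and the receptors that bind them. IL-1 alpha and IL-1 beta bind the signalling receptor IL-1R1, which then recruits the accessory protein encoded by Il1rap, and the pair signals through MYD88 and IRAK kinases to NF-kB. Several members restrain the pathway: the receptor antagonist encoded by Il1rn occupies IL-1R1, IL-1R2 is a decoy that binds the ligand without signalling, and IL-18 binding protein captures IL-18. Dendritic cells and macrophages are major sources of IL-1 beta and IL-18, which are made as precursors and cut by caspase-1 in the inflammasome.

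The samples were bone marrow-derived dendritic cells of mice, whose RNA was read by 2 one-colour arrays, 1 labelled EGR1-deficient and 1 labelled WT. EGR1 is an immediate early zinc-finger transcription factor. Both samples are labelled male C57BL/6J, and both cultures were grown from femoral marrow in MEM with 10% FBS and 10 ng/ml GM-CSF, renewed every other day, and collected on day 6. No agent that activates dendritic cells is named for either culture. How the EGR1 deficiency was made, and how many mice gave each culture, are not given in the sources used here. GM-CSF cultures of marrow hold macrophage-like and granulocytic cells beside dendritic cells, and with total RNA a lower share of 1 cell type cannot be told apart from less RNA per cell.

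With 1 array per label no difference has a replicate check, and no p-value was computed. Of 59305 spots that were not controls, 59.8% were well above background under the EGR1-deficient label and 55.2% under the WT label. The labels were checked first. Egr1, the gene named as deficient, was higher under the label that names its loss: it read 1212 under the EGR1-deficient label and 379.7 under the WT label, in 1 probe whose position relative to any deleted part is not known here. Xist, which is normally silent in male cells, read 4559 and 3425, while no probe of the Y-linked genes Ddx3y, Kdm5d and Uty was well above background and 1 dim probe of Eif2s3y was (27.1 and 25.6). Directions below therefore rest on the labels as given.

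Of the 9 genes, 6 were well above background on both arrays (Il1b, Il1rn, Il18, Il18bp, Il1r2 and Il1rap), as were 13725 of all 23786 named genes. Il1a was well above background under the WT label only, as were 371 of the named genes, and Il33 and Il1r1 on neither array. Most of the detected members lay close together on the 2 arrays, whereas Il1rap and Il1a were lower under the EGR1-deficient label. Values below are the scanner program's processed signal, in intensity units, and differences are log2 signal scaled to each array's 75th percentile, EGR1-deficient minus WT. Where 2 readings of a probe are given as a pair, the one labelled EGR1-deficient comes first. The error given with a difference is the scanner program's own modelled error of both spots, which covers the measurement of a spot and not the spread between cultures.

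**Figure D1:**
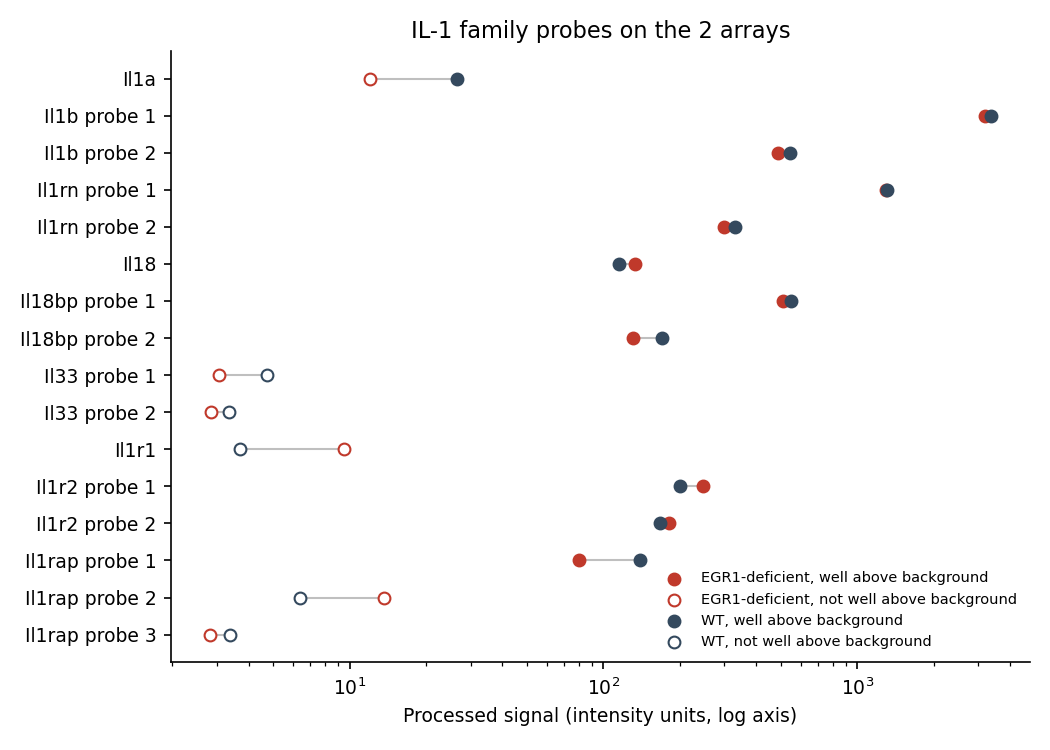
Processed signal (log axis, intensity units) of all 16 probes of the 9 genes under the EGR1-deficient label (red) and the WT label (dark blue), with open points for readings not well above background. The pairs of points nearly coincide for Il1b and Il1rn and are visibly apart for Il1rap probe 1 (80.5 and 139.3) and Il1a (12.07 and 26.6). Among pairs with both points open, Il1r1 (9.55 and 3.70) and Il1rap probe 2 (13.7 and 6.39) are apart in the other direction.

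Upstream sequences of the members were read from RefSeq (assembly GRCm38.p6), because EGR1 acts by binding DNA. The EGR motif GCGNGGGCG was searched on both strands in the 250 bases before each annotated start. None of 13 windows of the 9 genes held it, and 4.7% of all 32851 windows did. An NF-kB motif (3 G, 2 free bases, 2 T, 1 free base and 2 C) was searched in the same way. It was found in 1 of the 13 windows, that of an Il1rn start, and in 4.11% of all. That Il1rn start lies downstream of other Il1rn starts, so the site is not upstream of the whole gene. Later starts of Il1r1 and Il33 also lie downstream of an earlier start of the same gene, and windows of Il1rn overlap in part. A match is a description of letters only, and its absence concerns this window only. The overlap of a window with the annotated gene was measured for Il1b and Il1rap only, and for both the start used lay inside the annotated gene. Only 225 and 54 of their 250 bases were outside it, so most of the Il1rap window was within the gene. Bases further upstream of Il1rap were not searched. Shown 5′ to 3′ are the Il1rn site (chr2:24345310-24345339, + strand, bases −51 to −42 from the start in capitals), and the parts of the windows of Il1b (chr2:129371165-129371389, − strand) and Il1rap (chr16:26581455-26581508, + strand) that lie outside the annotated gene, Il1b as the cytokine with readings well above background in both probes and Il1rap as the member furthest apart.
Il1rn: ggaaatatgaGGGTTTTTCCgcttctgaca
Il1b: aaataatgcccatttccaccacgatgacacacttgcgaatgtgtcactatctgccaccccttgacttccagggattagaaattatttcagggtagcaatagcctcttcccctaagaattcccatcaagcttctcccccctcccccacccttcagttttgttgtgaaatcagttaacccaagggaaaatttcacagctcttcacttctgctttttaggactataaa
Il1rap: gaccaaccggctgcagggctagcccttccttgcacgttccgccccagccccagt

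Among the agonist cytokines, Il1b encodes IL-1 beta, the inflammasome product that drives fever and neutrophil recruitment. Its brighter probe read 3198 under the EGR1-deficient label and 3358 under the WT label, and its other probe 488.3 and 542.1. The differences were −0.14 ± 0.20 and −0.22 ± 0.20 (modelled error), so both probes read slightly lower under the EGR1-deficient label, by about the size of their error. The 95% interval from that error ran from −0.54 to 0.26 for the brighter probe, so this pair of arrays leaves room for a loss of up to 0.54 log2 units in that reading.

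Il18 encodes IL-18, which stimulates interferon-gamma production by T and NK cells. Its single probe read 133.8 under the EGR1-deficient label and 115.5 under the WT label, a difference of 0.15 ± 0.21. Il18 was thus on the higher side there, again within its error.

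Il1a encodes IL-1 alpha, which is active without caspase-1 cleavage and is released from damaged cells. Its single probe read 12.07, not well above background, under the EGR1-deficient label, and 26.6, well above background, under the WT label. Because the first reading gives only a bound, the WT reading was set against the lowest signal called well above background on the other array (13.3). After each was scaled to its array's 75th percentile (191.6 for EGR1-deficient, 183.0 for WT), Il1a was at least 2.09-fold lower under the EGR1-deficient label. Of 15374 genes above background on either array, 1.25% were called under the WT label alone and at least 2-fold lower. The bound rests on 1 dim spot, and it was −1.06 on the log2 scale, against −0.40 after normexp background correction.

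Il33 encodes the alarmin IL-33, made mainly by epithelial and stromal cells. Its probes read 3.07 and 2.84 under the EGR1-deficient label and 4.71 and 3.34 under the WT label, none of them well above background. No level or fold can be given for Il33.

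The inhibitors were measured by probes well above background on both arrays. Il1rn, the receptor antagonist gene, read 1303 and 1306 in its brighter probe, a difference of −0.07 ± 0.20, and 300.0 and 331.4 in the other, a difference of −0.21 ± 0.20. Il1rn is the member whose direction depended on scaling: it was below 0 in 5 of 9 settings, the one reported included, and above 0 after quantile normalization (0.04), after loess (0.03), with another set of spots for the percentile (0.0016) and in the authors' series table (0.05). The intervals of both probes of Il1rn include 0.

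Il18bp encodes the soluble protein that neutralises IL-18. Its brighter probe read 509.5 under the EGR1-deficient label and 549.4 under the WT label, a difference of −0.18 ± 0.20. Its other probe read 131.3 and 171.0, a difference of −0.45 ± 0.21 with an interval from −0.86 to −0.04. Both probes of Il18bp were lower under the EGR1-deficient label, and they differed from each other by 0.27 ± 0.29, less than the error of that gap.

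Il1r2, the decoy receptor gene, lay on the other side of 0. Its brighter probe read 247.6 under the EGR1-deficient label and 199.98 under the WT label (0.24 ± 0.21), and its other probe 181.8 and 167.1 (0.06 ± 0.21). Neither difference was larger than 1.96 modelled errors.

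Il1rap, the accessory chain shared by the receptors for IL-1, IL-33 and IL-36, was the furthest apart of the members detected on both arrays. The probe for transcript NM_008364 read 80.5 under the EGR1-deficient label and 139.3 under the WT label, which is 1.81-fold lower after scaling. The difference was −0.86 ± 0.21, with an interval from −1.28 to −0.44. The probes assigned to the transcripts NM_134103 and NM_001159318 of Il1rap read 13.7 and 2.82 under the EGR1-deficient label and 6.39 and 3.38 under the WT label, none well above background, so the difference of Il1rap rests on 1 probe. That difference was −0.51 after normexp and lay between −0.90 and −0.74 in the other settings. The 54 bases printed for Il1rap beside Il1b are the part of its window outside the annotated gene.

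Il1r1, the gene of the signalling receptor itself, read 9.55 under the EGR1-deficient label and 3.70 under the WT label in its single probe. Neither reading was well above background, so no direction is given for Il1r1. Of the receptor genes among the members, Il1r2 and Il1rap were therefore well above background in these cultures and Il1r1 was not.

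**Figure D2:**
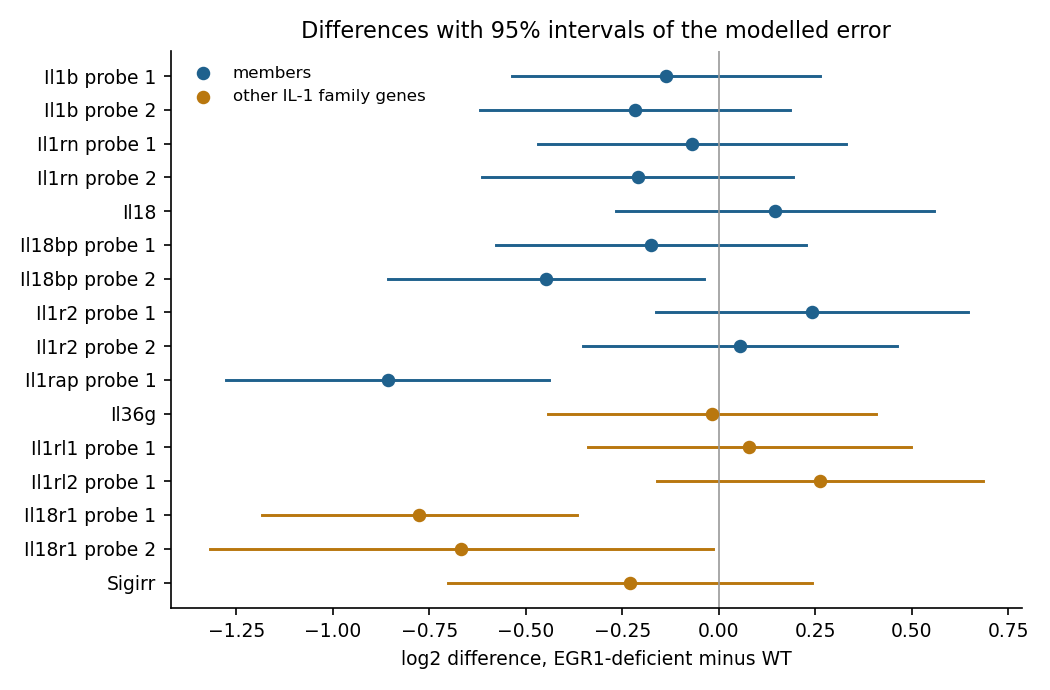
Log2 difference, EGR1-deficient minus WT, of each IL-1 family probe well above background on both arrays, with bars of 1.96 modelled errors each way (members blue, other family genes orange). The bars of Il1rap (−0.86), of both Il18r1 probes (−0.78 and −0.67) and of Il18bp probe 2 (−0.45) do not reach 0.

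Set against all 13725 genes well above background on both arrays, the members other than Il1rap lay in the bulk. None of the 6 detected members was 2-fold or more apart, against 1.71% of those genes. Il1rap was the 1 member 1.5-fold or more lower under the EGR1-deficient label, a class that holds 4.17% of genes, and also the 1 member whose representative probe was further from 0 than 1.96 modelled errors, as 13.5% of genes were. Below 0 lay 4 of 6 members and 57.4% of genes. The median difference of the members was −0.10 and that of all these genes −0.05.

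**Figure D3:**
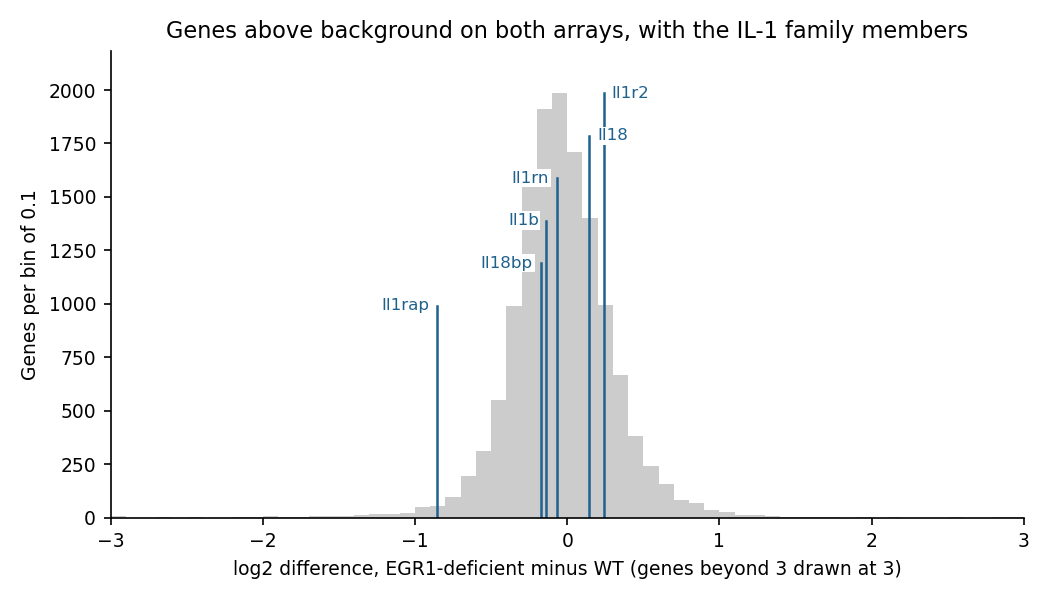
Distribution of the log2 difference, EGR1-deficient minus WT, over the 13725 genes well above background on both arrays (grey, bins of 0.1), with blue lines, whose height has no meaning, at the 6 detected members. Il1rap at −0.86 lies in the lower tail, and the other members lie between −0.18 and 0.24, within the bulk.

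The other genes of the family comprise 5 listed ligands and 7 listed receptors. In the RefSeq gene table of assembly GRCm38.p6, Il1r2 and Il1r1 lie next to Il1rl2, Il1rl1, Il18r1 and Il18rap in a run of receptor genes on chromosome 1, while Il1rn lies beside the IL-36 genes and Il1f10 on chromosome 2, which also carries Il1a and Il1b. Among these receptors Il18r1, the ligand-binding chain for IL-18, read 131.0 under the EGR1-deficient label and 214.2 under the WT label, and 22.1 and 33.5 in its other probe. Its differences were −0.78 ± 0.21 and −0.67 ± 0.33, so both probes of Il18r1 were lower there.

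Il18rap, the partner chain of Il18r1, read 21.3 under the EGR1-deficient label and 19.0, not well above background, under the WT label. After scaling it was at least 1.07-fold higher in the former. The remaining detected receptors were near 0. Il1rl1, the IL-33 receptor gene, differed by 0.08 ± 0.21 (131.4 and 118.8), Il1rl2, the IL-36 receptor gene, by 0.26 ± 0.22 (121.4 and 96.6), and Sigirr, a negative regulator of the family, by −0.23 ± 0.24 (52.7 and 59.1). Il1rapl1 and Il1rapl2, known from neurons, were not well above background.

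Of the other ligands, Il36g was detected on both arrays, at 93.6 and 90.4 (−0.02 ± 0.22). Il36rn, the IL-36 receptor antagonist gene, and Il1f10 were well above background under the EGR1-deficient label alone, at 21.1 and 24.8 against 3.68 and 12.7. After scaling this gives at least 1.23-fold and 1.45-fold higher. Over all 23786 named genes, 1278 were called under the EGR1-deficient label alone and 371 under the WT label alone. Il36a and Il36b were not well above background.

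The machinery that cuts and releases IL-1 beta and IL-18 was detected in full on both arrays, against 13725 of 23786 named genes. Its 14 of 14 listed genes had a median difference of −0.17. Of these, 13 lay below 0, against 57.4% of all genes and their median of −0.05, and 1 was further from 0 than 1.96 modelled errors, as 13.5% of all genes were. That gene was Nlrp1b, an inflammasome sensor, at 173.6 under the EGR1-deficient label and 58.1 under the WT label (1.51 ± 0.22). The other probes of Nlrp1b differed by only 0.38 and 0.44, and the gene has close paralogs. The pore-forming Gsdmd (3322 and 4117, −0.38 ± 0.20), the ATP-gated channel gene P2rx7 (−0.38 ± 0.20) and Casp8 (−0.33 ± 0.20) came next in size. The other probe of Gsdmd differed by −0.10. Those of P2rx7 differed by −0.63 and, not well above background under the WT label, by 0.47.

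Downstream of the receptor, 19 of 19 listed signalling genes were detected, against 13725 of 23786 named genes. Of the 19, 13 lay below 0 (57.4% of all genes), and their median was −0.12 (−0.05 over all genes). The medians of both lists were below 0 in every setting, between −0.22 and −0.05 for processing and between −0.12 and −0.0069 for signalling. The kinase gene Irak1 read 1745 under the EGR1-deficient label and 2289 under the WT label (−0.46 ± 0.20), whereas another of its probes differed by 0.32. Irak2 differed by 0.29 in its brighter probe (87462 and 68207) and by −0.45 in the other, which was far dimmer (82.8 and 108.1). Whether both probes of Irak2 read the same transcript was not tested. Ikbkg, the NEMO subunit gene, differed by between −0.46 and 0.28 over its 4 probes. For these 3 genes the probes thus disagree in sign. The probes of Traf6, Map3k7, Peli1 (−0.12 and 0.38), Chuk (−0.12 and 0.34), Ikbkb (−0.20 and 0.24), Tab2 and Mapk8 do so too. The count of 13 below 0 takes the brightest probe of each gene and so depends on that choice. The adaptor gene Tab1 differed by −0.29 ± 0.22.

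Of 19 listed genes that IL-1 is known to induce, 18 were detected on both arrays, as were 13725 of 23786 named genes. The median difference of the 18 was −0.23. Below 0 lay 16 of the 18 (57.4% of all genes), and 4 were 1.5-fold or more lower under the EGR1-deficient label (4.17% of all genes). These 4 were the neutrophil attractants Cxcl1 (96.7 and 169.0, −0.87 ± 0.21) and Cxcl2 (118.3 and 179.9, −0.67 ± 0.21), the cytokine gene Il6 (252.2 and 418.4, −0.80 ± 0.21, another probe −0.58) and the cyclooxygenase gene Ptgs2 (58.3 and 88.4, −0.67 ± 0.22). The other end of the list was Birc3 at 0.27. The list median lay between −0.24 and −0.10 over all settings. These genes also answer to other stimuli, and their relation to IL-1 in these cultures was not tested.

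**Figure D4:**
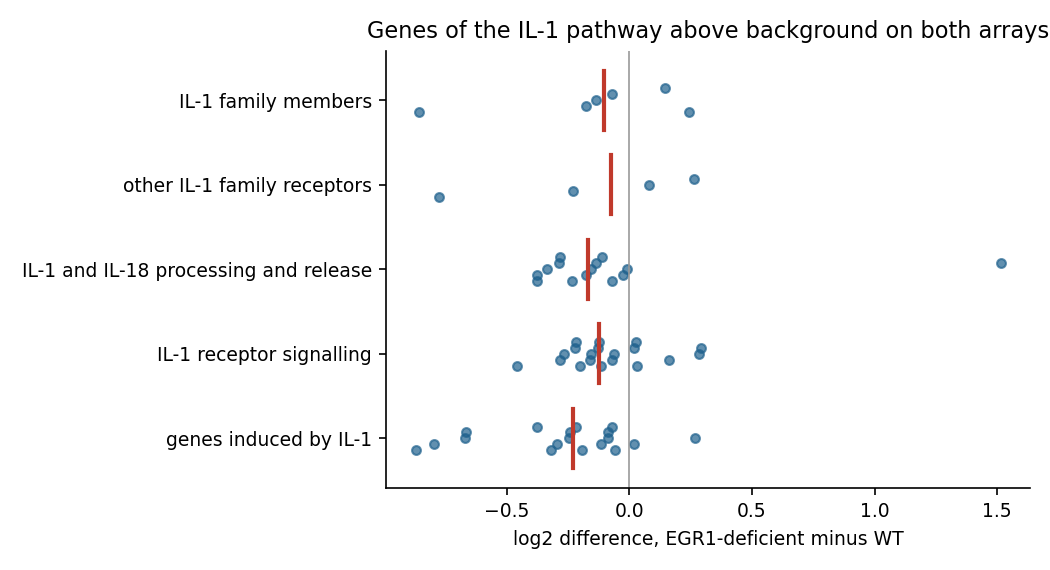
Log2 difference, EGR1-deficient minus WT, of each gene well above background on both arrays (points, spread vertically for display) in the 6 detected members and 4 related lists, with the list median in red. The medians run from −0.23 for genes induced by IL-1 to −0.08 for the other receptors, and Nlrp1b stands alone at 1.51.

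Markers of the cell types that these cultures can hold were read on the same scale. The counts of markers detected, here and in the next paragraph, stand beside 13725 of 23786 named genes well above background on both arrays. Dendritic cell markers were present, 9 of 10 on both arrays including Itgax (777.1 and 572.4), with a summed signal of 45747 and 45632 and a median difference of −0.0036 (0.15 after loess). Neutrophils are a known source of Il1b and Il1r2 RNA, and their markers were all detected (11 of 11), with Ly6g at 104.5 and 122.6, a sum of 68532 and 61592 and a median of 0.0014 (−0.04 after normexp and 0.14 after quantile normalization). Of these 11, 5 lay below 0 (57.4% of all genes) and 6 above, from −0.30 for Ly6g to 0.45. All 9 macrophage markers were below 0 (median −0.37), with Adgre1 at −0.30, and their sum was 26088 under the EGR1-deficient label and 32234 under the WT label.

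Mast cell and basophil markers, 7 of 8 detected, had a median of −0.30, with Mcpt8 at −0.63 and sums of 5111 and 6204. Mast cells and basophils are known for IL-1 family receptors, and the part of these cells, or of macrophages, in the lower Il1rap and Il18r1 readings was not tested. Stromal markers, 4 of 8 on both arrays, had a median of 0.98 (0.31 after normexp) and sums of 465.5 and 329.7, with Col1a1 above background under the EGR1-deficient label alone. That call of Col1a1 rests on 1 dim spot (22.4 and 13.3). The other probes of Col1a1 were well above background on neither array and differed by −0.37 and 0.0045. T and NK cell markers, also 4 of 8, had a median of 0.26 (0.76 without the filter on dim probes) and sums of 742.7 and 465.1. Their differences went both ways, with the NK receptor gene Klrd1 at 1.62 ± 0.22, Il2rb at −1.06 ± 0.26 and the T cell receptor complex gene Cd3e at 0.18 ± 0.21. Cd3g, of the same complex, was above background under the EGR1-deficient label alone and at least 2.29-fold higher there. Calls under that label alone, such as those of Col1a1 and Cd3g, were made for 1278 of all 23786 named genes. Klrd1, Il2rb and Cd3g were picked after their values were seen.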

How the data were processed

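RNA of 1 EGR1-deficient and 1 WT culture was measured on 1 array each. The authors deposited scanner output with spot intensities on a linear scale, made with Agilent Feature Extraction 12.1.0.3 per the file headers (11.5.1.1 per the submitters' processing notes). The processed intensity was used as deposited, with the scanner program's modelled error and background flag. A series table of 29296 intensities, also deposited by the authors, was found here to equal the processed intensity times 1 constant per array (6.18 and 5.97), not centred, with medians of 1205 and 1114. It served as an alternative.

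Each processed intensity was put on the log2 scale and the 75th percentile of all non-control spots on its array was subtracted, outlier spots (77 and 79) were left out, and repeated spots were averaged. No spot was saturated. Probes were named by accession in RefSeq GRCm38.p6 (34565 of 56603 probes). Where a gene had several probes, the one with the highest mean signal stands for it. An at-least fold uses the dim spot's reading or, where that is lower, the lowest well-above-background signal of its array, 13.3 (EGR1-deficient) or 16.3 (WT). All folds are of scaled values. The error of a difference combines both spots' modelled errors (median 0.21), and 1.96 errors give the 95% interval. Genes with 2 probes had a median SD between them of 0.17, and over 282 repeated probes the difference had an SD of 0.07. The number of arrays limits the precision.

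Normexp (offset 50, on the median spot and background signals, as the mean spot signal was not used here), quantile and loess alternatives used limma 3.58.1 in R 4.3.3. The rest used Python 3.11.15, and the counting steps were tested on simulated data. Named were all members and probes, other family genes above background on either array, up to 4 genes of each pathway list with the largest difference, defining markers, and Egr1. Xist, Y-linked genes, Birc3 and further signalling genes whose probes disagree in sign were named after their values were seen. The members and lists were chosen with earlier results of these data known.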

Additional observations from a re-analysis of the deposited data

How the results depend on the processing

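All 8 alternatives were run. The number of members 2-fold or more apart was 0 in each of them but 1: without a filter on dim probes it was 2, the dim Il1a (−1.21) and Il1r1 (1.30). The median difference of the members stayed within 0.17 log2 units of its value in every setting and ran from −0.16 when a gene's probes were averaged to 0.02 after quantile normalization, so its sign is not settled. Il1b, Il18bp and Il1rap were below 0 and Il18 and Il1r2 above 0 in all 9 settings, and Il1rn was below 0 in 5. Il1b came to −0.02 in the authors' series table and to −0.00066 after quantile normalization. Normexp shrank Il1rap to −0.51 and the bound of Il1a to −0.40, and the bound was −0.99, just under 2-fold, with the percentile taken over spots above background on both arrays. The authors' series table moved the median of all genes by 0.12. The counts of genes 2-fold or more higher and lower were 97 and 138, and 18 and 32 after normexp, 77 and 174 after quantile normalization, 73 and 184 after loess, 103 and 68 with the series table, 124 and 122 with the other percentile, 43 and 74 with a stricter filter, and 1280 and 971 without a filter. The causes were not tested. Signal close to background limits Il1a, Il33, Il1r1 and the other Il1rap transcripts. No paired analysis was possible because each group has 1 array.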
